A study of Mus musculus with 15 samples.

Results

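The blood vessels of the islet were read here through 9 genes: 8 that are expressed by endothelial cells (Pecam1, Cdh5, Kdr, Flt1, Tek, Plvap, Esm1 and Vwf) and Vegfa, the growth factor that endocrine cells release towards those vessels. They were taken by gene name from a table of 48709 genes, and all 9 were among the 16554 genes with enough counts to be tested. RNA was sequenced from islets of 15 NOD/ShiLtJ females, 3 separate mice at each of 5 ages (4, 6, 8, 10 or 12 weeks). All mice carried the NOD genotype, a strain in which leukocytes enter the islets and diabetes develops spontaneously, and no other strain or treatment is compared here. The islets were isolated with collagenase, so a library holds RNA of every cell type that stayed with them, and the difference between ages is a difference between animals. Total counts per library ran from 25407492 to 41616275 with a median of 28004882. The least counted of the 9 genes, Vwf, had 61 to 1358 counts per mouse, and the most counted, Vegfa, had 5971 to 14990.

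Islets are among the most densely vascularised tissues, and their capillaries are fenestrated, meaning that the endothelium is pierced by pores closed with a thin diaphragm. Beta cells and other endocrine cells secrete VEGF-A, which binds VEGF receptors on the endothelium and maintains both the density and the fenestration of these capillaries. Inflamed tissue vessels take on other features, among them adhesion molecules that let leukocytes cross the wall and, where lymphoid aggregates form, the characteristics of high endothelial venules.

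The stretches before the start sites of 4 of the genes are shown first. Of these genes, Vegfa and Esm1 were lower in the older mice, whereas the receptors Kdr and Flt1 did not pass the test. A link between the stretches and the changes with age was not tested. RefSeq entries for GRCm38.p6 gave promoters for 5 of the 9 genes (Esm1, Flt1, Kdr, Tek and Vegfa, the last with 2 start sites). Each sequence below runs 5′ to 3′ on the strand of its gene over the 250 bases before the start. Capitals mark matches, on either strand, to ACGTG (the core bound by hypoxia-inducible factors), AGGAAG or CGGAAG (cores bound by ETS factors), AGATAA (bound by GATA factors) and GGGCGG (the GC box, CCGCCC on the other strand). The Vegfa stretch is chr17:46032378-46032627 on the minus strand, next to the start of the gene as counted, Esm1 is chr13:113209409-113209658 on the plus strand, Kdr is chr5:75978456-75978705 on the minus strand and Flt1 is chr5:147726012-147726261 on the minus strand.
Vegfa: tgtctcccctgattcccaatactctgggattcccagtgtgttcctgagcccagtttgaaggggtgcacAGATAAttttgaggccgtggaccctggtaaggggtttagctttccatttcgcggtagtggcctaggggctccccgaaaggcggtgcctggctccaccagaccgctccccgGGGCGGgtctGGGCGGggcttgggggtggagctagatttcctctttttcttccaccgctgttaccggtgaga
Esm1: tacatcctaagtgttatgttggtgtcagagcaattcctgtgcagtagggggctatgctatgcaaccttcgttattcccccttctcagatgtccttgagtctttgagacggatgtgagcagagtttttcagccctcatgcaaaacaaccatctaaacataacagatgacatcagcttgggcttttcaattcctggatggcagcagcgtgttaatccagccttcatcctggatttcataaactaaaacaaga
Kdr: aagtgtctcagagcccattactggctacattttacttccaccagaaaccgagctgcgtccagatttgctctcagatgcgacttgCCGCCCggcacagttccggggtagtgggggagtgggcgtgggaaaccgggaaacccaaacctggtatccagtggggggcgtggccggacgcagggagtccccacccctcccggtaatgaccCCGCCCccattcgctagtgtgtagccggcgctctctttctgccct
Flt1: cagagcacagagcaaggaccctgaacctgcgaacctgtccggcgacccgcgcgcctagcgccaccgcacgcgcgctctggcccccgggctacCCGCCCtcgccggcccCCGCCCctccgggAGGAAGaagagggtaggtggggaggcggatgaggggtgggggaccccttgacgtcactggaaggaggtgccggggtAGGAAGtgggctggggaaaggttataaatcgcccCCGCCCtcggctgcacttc
The marked matches do not overlap each other. The GC box stands 2 times in the Vegfa stretch, 3 times in Flt1 and 2 times in Kdr, and 35.7% of 32851 promoters of 300 bases (250 before and 50 after the start) hold it. AGGAAG stands 2 times in Flt1 and is held by 35.4% of promoters, AGATAA stands once in Vegfa and is held by 11.2%, and none of the 5 motifs was found in the Esm1 stretch. Tek, not shown, has AGATAA 36 bases after its start. ACGTG was not found in the 4 stretches shown. It was found 211 bases before the other Vegfa start, which lies inside the gene, and in 19.6% of all promoters. CGGAAG, in 16.9% of promoters, was found in none of the 6. These are matches of letters, not sites of binding.

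Some libraries stood apart from the others of their age. Summed over 10 genes of intestinal epithelium, replicate 1 at 12 weeks had 504 TPM (a level per transcript length, as a share of the library) and replicate 2 at 6 weeks had 89.8 TPM, against 30.9 to 48.9 TPM in the other 13 mice. Summed over 22 leukocyte genes, replicate 1 at 8 weeks had 178 TPM against 827 and 1211 TPM in the other mice of that age, and replicate 3 at 10 weeks had 1243 TPM against 3070 and 2184 TPM. At the young ages, replicate 1 at 4 weeks (243 TPM) and replicate 3 at 6 weeks (269 TPM) were the highest. The 10 acinar genes summed to between 2618 and 39010 TPM with no order by age. The calls below for Vegfa and for the endothelial genes listed at the start were repeated without each mouse in turn. For genes of the other lists, such repeats are not given gene by gene. As a check of the tissue, all 12 endocrine genes were detected in every mouse, and Chga (chromogranin A) alone had 10240 ± 216 CPM (counts per library after TMM scaling, set to the same total in every mouse; SD, n = 3) at 4 weeks.

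Vegfa, the ligand, fell between 8 and 10 weeks. Vegfa (ENSMUSG00000023951, chr17:46016993-46032377) had 355, 416 and 396 CPM in the 3 mice of 4 weeks, 384, 394 and 384 CPM at 6 weeks and 422, 319 and 332 CPM at 8 weeks. At 10 weeks it had 216, 222 and 258 CPM and at 12 weeks 240, 263 and 218 CPM. All 6 mice of 10 and 12 weeks lay below all 9 younger mice. From 389 ± 31.0 to 241 ± 22.5 CPM (SD, n = 3), Vegfa decreased by 0.69 on the log2 scale between 4 and 12 weeks (standard error 0.112, adjusted p = 0.000497 by edgeR's quasi-likelihood test with Benjamini-Hochberg adjustment over 16554 genes), a 0.619-fold level. Of all genes tested, 53.5% passed the same threshold in this comparison, an adjusted p under 0.05, 26.3% higher and 27.2% lower. With the mice of 10 and 12 weeks (late) set against those of 4 and 6 weeks (early), Vegfa decreased by 0.72 (adjusted p = 2.48e-05), and by an exact two-sided permutation test of 6 against 6 mice the p was 0.00217, the smallest that splits of 12 mice allow. In the step from 8 to 10 weeks it decreased by 0.63 (adjusted p = 0.0203), a call that was lost without replicate 1 at 8 weeks (-0.49, adjusted p = 0.104), replicate 2 at 8 weeks (-0.70, adjusted p = 0.0669), replicate 1 at 10 weeks (-0.58, adjusted p = 0.09) or replicate 2 at 10 weeks (-0.59, adjusted p = 0.114). In each of these 4 fits 0 of all genes were called. The step was also not called with the 2 ages fitted alone (adjusted p = 0.171) or by edgeR's exact test (adjusted p = 0.0505). Nor was it called with the replicate number as a block (adjusted p = 0.0549) or with the covariate described next (-0.44, adjusted p = 0.267). With the mean of 22 leukocyte genes as a covariate, the change of Vegfa was -0.22 at 12 against 4 weeks (adjusted p = 0.794) and -0.28 in the late against the early mice (adjusted p = 0.771). In those fits 2 and 0 of all 16554 genes passed. In bulk RNA, fewer cells of a type and less RNA per cell cannot be told apart.

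Like Vegfa, most of the endocrine genes tested were lower at 12 than at 4 weeks. Of 12 endocrine genes (secretory granule proteins such as Chga and Cpe and transcription factors such as Insm1 and Rfx6), 11 fell between 4 and 12 weeks and none rose. Of all genes tested, 27.2% were called lower and 26.3% higher in this comparison. The median log2 change of the endocrine genes was -0.88, against -0.05 over all genes tested. Cpe, the carboxypeptidase that trims hormone precursors, fell by 1.12 (adjusted p = 0.000226), and Insm1 fell by 1.06 (adjusted p = 0.000181). Measured against the mean of the 12 endocrine genes in the same mouse, the log2 change of Vegfa was 0.17 at 12 against 4 weeks (adjusted p = 0.0672, limma) and 0.04 for the late against the early mice (adjusted p = 0.514). These values did not pass the test, which 82.1% and 84.8% of all genes passed, and that does not show that Vegfa and the endocrine genes changed alike. By the measure of likeness used, Pearson's r of log2 CPM over the 15 mice, the genes closest to Vegfa were Impad1 (0.979), Adcy6, Mlxipl, Gjd2 and Klhl7 (0.977). Mlxipl encodes ChREBP, a glucose-responsive transcription factor, and Gjd2 encodes connexin 36, which couples beta cells. The ages are the main thing the points share, so these coefficients describe the age pattern.

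Neither receptor of VEGF-A passed the test, and with the scaling the sign turned for Kdr in both comparisons and for Flt1 in the late against the early mice. Kdr (VEGF receptor 2, the main signalling receptor, ENSMUSG00000062960, chr5:75932827-75978458) had 149, 137 and 145 CPM at 4 weeks and 134, 157 and 137 CPM at 12 weeks. The ranges in CPM overlapped at every age, and the age means lay between 134 and 144 CPM. The log2 change from 4 to 12 weeks was -0.007 with a 95% interval from -0.21 to 0.19 (adjusted p = 0.956). Flt1 (VEGF receptor 1, which binds VEGF-A tightly and limits its signal, ENSMUSG00000029648, chr5:147561604-147726011) had 95.4, 98.5 and 92.1 CPM at 4 weeks and 81.4, 121 and 103 CPM at 12 weeks. Its log2 change was 0.10 with an interval from -0.18 to 0.37 (adjusted p = 0.554), and the SD was widest at 12 weeks (19.98 CPM). Over the 15 mice, Kdr and Flt1 varied together (Pearson's r of log2 CPM 0.78) and neither followed Vegfa (0.04 and 0.12).

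TMM sets the bulk of genes level between libraries. Scaling by library totals alone raised the median log2 change of all genes tested by 0.245 at 12 against 4 weeks and by 0.23 for the late against the early mice, and the share of called genes that were higher went from 49.19% to 78.27% and from 47.21% to 76.28%. On that scale the 12 against 4 week change of Kdr was 0.24 (adjusted p = 0.0445), of Flt1 0.34 (adjusted p = 0.0423) and of Tek 0.50 (adjusted p = 0.015) beside 0.197 for the median gene. Vegfa stayed on the lower side at -0.45 (adjusted p = 0.00133).

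Tek (Tie2, the angiopoietin receptor, ENSMUSG00000006386, chr4:94739289-94874976) had 18.2, 20.9 and 15.99 CPM at 4 weeks, 14.9, 13.3 and 15.1 CPM at 6 weeks and 19.2, 22.6 and 23.6 CPM at 12 weeks. The groups of 4 and 12 weeks overlapped, and the 3 mice of 6 weeks lay below all others except replicate 3 at 10 weeks. The log2 change from 4 to 12 weeks was 0.25 (standard error 0.152, adjusted p = 0.183). For the late against the early mice it was 0.26 (adjusted p = 0.0516), near the threshold. It passed in 5 of the 15 fits that left out a mouse, with DESeq2 size factors (0.31, adjusted p = 0.0253), with library totals (0.49, adjusted p = 0.00154), with the 4 ages fitted alone (0.28, adjusted p = 0.0274) and by DESeq2 (0.31, adjusted p = 0.0171).

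The junction genes Pecam1 and Cdh5 were higher at 12 than at 4 weeks, after values at 6 weeks that lay below those of 4 weeks in every mouse. Pecam1 (CD31, an adhesion molecule of endothelial junctions that platelets and leukocytes also carry, ENSMUSG00000020717, chr11:106654217-106750628) had 100, 100 and 95.9 CPM at 4 weeks, 85.5, 80.6 and 86.7 CPM at 6 weeks and 107, 119 and 112 CPM at 8 weeks. At 10 weeks it had 150, 154 and 113 CPM and at 12 weeks 164, 180 and 189 CPM. Every mouse of 12 weeks was above every younger mouse, and replicate 3 at 10 weeks lay among the mice of 8 weeks. Pecam1 rose by 0.85 between 4 and 12 weeks (standard error 0.1001, adjusted p = 0.000168), from 98.8 ± 2.46 to 178 ± 12.6 CPM, a 1.80-fold level. For the late against the early mice it rose by 0.78 (adjusted p = 1.43e-05, exact permutation p = 0.00217).

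Cdh5 (VE-cadherin, the cadherin of endothelial adherens junctions, ENSMUSG00000031871, chr8:104101625-104144511) had 50.5, 55.0 and 51.7 CPM at 4 weeks and 70.7, 73.4 and 79.9 CPM at 12 weeks. The groups did not overlap. In between it had 48.7, 45.6 and 42.9 CPM at 6 weeks, 53.1, 59.6 and 54.4 CPM at 8 weeks and 63.1, 69.0 and 49.2 CPM at 10 weeks, again with replicate 3 as the lowest mouse of 10 weeks. Cdh5 rose by 0.51 (standard error 0.104, adjusted p = 0.00166), a 1.42-fold level. Pecam1 and Cdh5 were the most closely tied pair among the 9 genes (Pearson's r of log2 CPM 0.96 over 15 mice).

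Leukocyte and fibroblast genes moved in the same direction as both. All 22 leukocyte genes tested were called higher at 12 than at 4 weeks, where 26.3% of all genes were. The median log2 change of the 22 was 4.65. Their summed level went from 44.6 to 243 TPM at 4 weeks to between 2554 and 3257 TPM at 12 weeks, and the most abundant was Lyz2, the lysozyme of macrophages (39.8 ± 40.2 to 812 ± 7.70 CPM). Pax5, a transcription factor of B cells, rose by 8.72 (adjusted p = 0.000117). All 9 fibroblast genes were called higher as well (median 2.28), beside 26.3% of all genes. Dcn, the matrix proteoglycan decorin, was the most abundant, and Pdgfra (3.45) and Dpt (3.42) had the largest rises. With the mean of the leukocyte genes as a covariate, the 12 against 4 week changes were 0.59 for Pecam1 (adjusted p = 0.386) and 0.45 for Cdh5 (adjusted p = 0.600). In that fit 0 of the 8 endothelial genes were called, and 2 of all 16554 genes, so the lost calls say nothing particular to these genes. Leukocyte level and age rose together, and the part of leukocyte RNA in the Pecam1 values was not tested.

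Plvap (the protein that forms the diaphragms of fenestrae, ENSMUSG00000034845, chr8:71497765-71511752) was the most abundant of the 9 genes per length. It had 209, 203 and 194 CPM at 4 weeks, 193, 183 and 185 CPM at 6 weeks, 186, 204 and 170 CPM at 8 weeks, 196, 241 and 199 CPM at 10 weeks and 236, 229 and 236 CPM at 12 weeks. The mice of 12 weeks were above those of 4, 6 and 8 weeks, and replicate 2 at 10 weeks was the highest of all. Plvap rose by 0.21 from 4 to 12 weeks (standard error 0.0834, adjusted p = 0.0492), a 1.16-fold level. The call was near the threshold: it was lost without the filter on low counts (adjusted p = 0.076) and in 10 of the 15 fits that left out a mouse, with an adjusted p of up to 0.150. For the late against the early mice the rise was 0.20 (adjusted p = 0.0109, exact permutation p = 0.0216) and held without any single mouse. Plvap lies over Gtpbp3 on the other strand, and since it is not given whether the counting used the strand, reads of the pair (90449 counts for Plvap in all mice, 7275 for Gtpbp3) may have been shared.

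Esm1 was lower in the older mice. Esm1 (endocan, a secreted proteoglycan that endothelium makes on VEGF stimulation, ENSMUSG00000042379, chr13:113209659-113218098) had 44.2, 45.7 and 50.7 CPM at 4 weeks, 53.6, 61.8 and 51.0 CPM at 6 weeks and 69.3, 46.7 and 42.03 CPM at 8 weeks. At 10 weeks it had 19.7, 25.9 and 42.8 CPM and at 12 weeks 33.7, 38.4 and 30.0 CPM. The mice of 12 weeks lay below all of 4, 6 and 8 weeks, while replicate 3 at 10 weeks lay within the range of the mice of 8 weeks. Esm1 fell by 0.69 in the late against the early mice (standard error 0.172, adjusted p = 0.00362, exact permutation p = 0.00217), a 0.621-fold level. At 12 against 4 weeks alone the groups did not overlap in CPM, and the log2 change was -0.46 (standard error 0.242, adjusted p = 0.124). By TPM they overlapped, with 40.5 to 46.1 at 4 weeks and 38.6 to 44.7 at 12 weeks. With library totals the change was -0.22 (adjusted p = 0.433, edgeR's quasi-likelihood test). This comparison did pass, lower, when the 2 ages were fitted alone (-0.41, adjusted p = 0.0145), by edgeR's exact test (-0.41, adjusted p = 0.00473) and without replicate 3 at 10 weeks (-0.46, adjusted p = 0.0409). From 8 to 10 weeks Esm1 fell by 0.84 (adjusted p = 0.0386), and this call was lost in 8 of the 15 fits that left out a mouse, with changes from -0.92 (adjusted p = 0.0744, without replicate 2 at 8 weeks) to -0.59 (adjusted p = 0.174, without replicate 1 at 8 weeks). In 4 of those 8 fits 0 of all genes were called. The call was also lost with these 2 ages fitted alone (-0.84, adjusted p = 0.176) and by edgeR's exact test (-0.84, adjusted p = 0.139). It was lost as well with the replicate number as a block (-0.85, adjusted p = 0.0696) and with the leukocyte covariate (-0.44, adjusted p = 0.384). With the leukocyte covariate the late against early change was 0.23 (adjusted p = 0.917).

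Among the 8 endothelial genes, Esm1 was the closest to Vegfa, with a Pearson's r of log2 CPM of 0.89 over 15 mice. Pecam1 and Vwf had -0.87 and -0.88 with Vegfa. Other genes were closer to each, such as Impad1 to Vegfa (0.979) and Exph5 to Esm1 (0.965). The points share their ages, so these coefficients too describe the age pattern. Replicate 1 at 8 weeks had the highest values of all 15 mice for Esm1 (69.3 CPM) and Vegfa (422 CPM). Replicate 3 at 10 weeks had the highest of its age for both (42.8 and 258 CPM). The mice of an age did not always stand in the same order: at 4 weeks Esm1 was highest in replicate 3 (50.7 CPM) and Vegfa in replicate 2 (416 CPM), and at 10 weeks the ratio of Vegfa to Esm1 ran from 6.03 to 10.98. Replicate 1 at 8 weeks and replicate 3 at 10 weeks are also the 2 mice with the lowest leukocyte level of their ages. Esm1 lies over Gzmk, a protease gene of cytotoxic lymphocytes, on the other strand. Gzmk had 932 counts in all mice against 19035 for Esm1.

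Of the 9 genes, Vwf had the largest fold change. Vwf (von Willebrand factor, a clotting protein stored in endothelial cells and platelets, ENSMUSG00000001930, chr6:125546774-125686679) had 3.82, 4.58 and 2.21 CPM at 4 weeks, 4.72, 2.08 and 5.87 CPM at 6 weeks and 7.70, 18.3 and 10.1 CPM at 8 weeks. At 10 weeks it had 22.4, 34.1 and 20.8 CPM and at 12 weeks 31.4, 43.2 and 35.8 CPM. The mice of 10 weeks did not overlap with those of 8, nor those of 8 with those of 6, while 10 and 12 weeks overlapped. Between 4 and 12 weeks Vwf rose by 3.38 (standard error 0.423, adjusted p = 0.000205), a 10.4-fold level, and by 3.01 in the late against the early mice (adjusted p = 1.75e-05). Leaving out each mouse in turn gave 3.13 to 3.61 at 12 against 4 weeks, and the leukocyte covariate gave 2.17 (adjusted p = 0.388).

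Platelets also hold Vwf. Of 7 platelet and megakaryocyte genes, 4 had enough counts to be tested, and 1 of them rose between 4 and 12 weeks: Pf4 (platelet factor 4) by 3.16 (adjusted p = 0.000349), from 0.344 ± 0.0779 to 3.13 ± 1.03 CPM. Of all genes, 26.3% were called higher in this comparison, so that count is near the background and is not a result about the list. The integrin gene Itga2b had a log2 change of 0.49 (adjusted p = 0.237), and the von Willebrand receptor genes Gp9 and Gp1ba had -0.94 (adjusted p = 0.226) and -0.01 (adjusted p = 0.996). The summed level of the 7 genes was 2.73 to 3.71 TPM at 4 weeks and 10.3 to 18.1 TPM at 12 weeks. Most of that rise was Pf4 alone, with means of 0.917 and 11.06 TPM. The part of platelet RNA in the Vwf values was not tested.

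**Figure D1:**
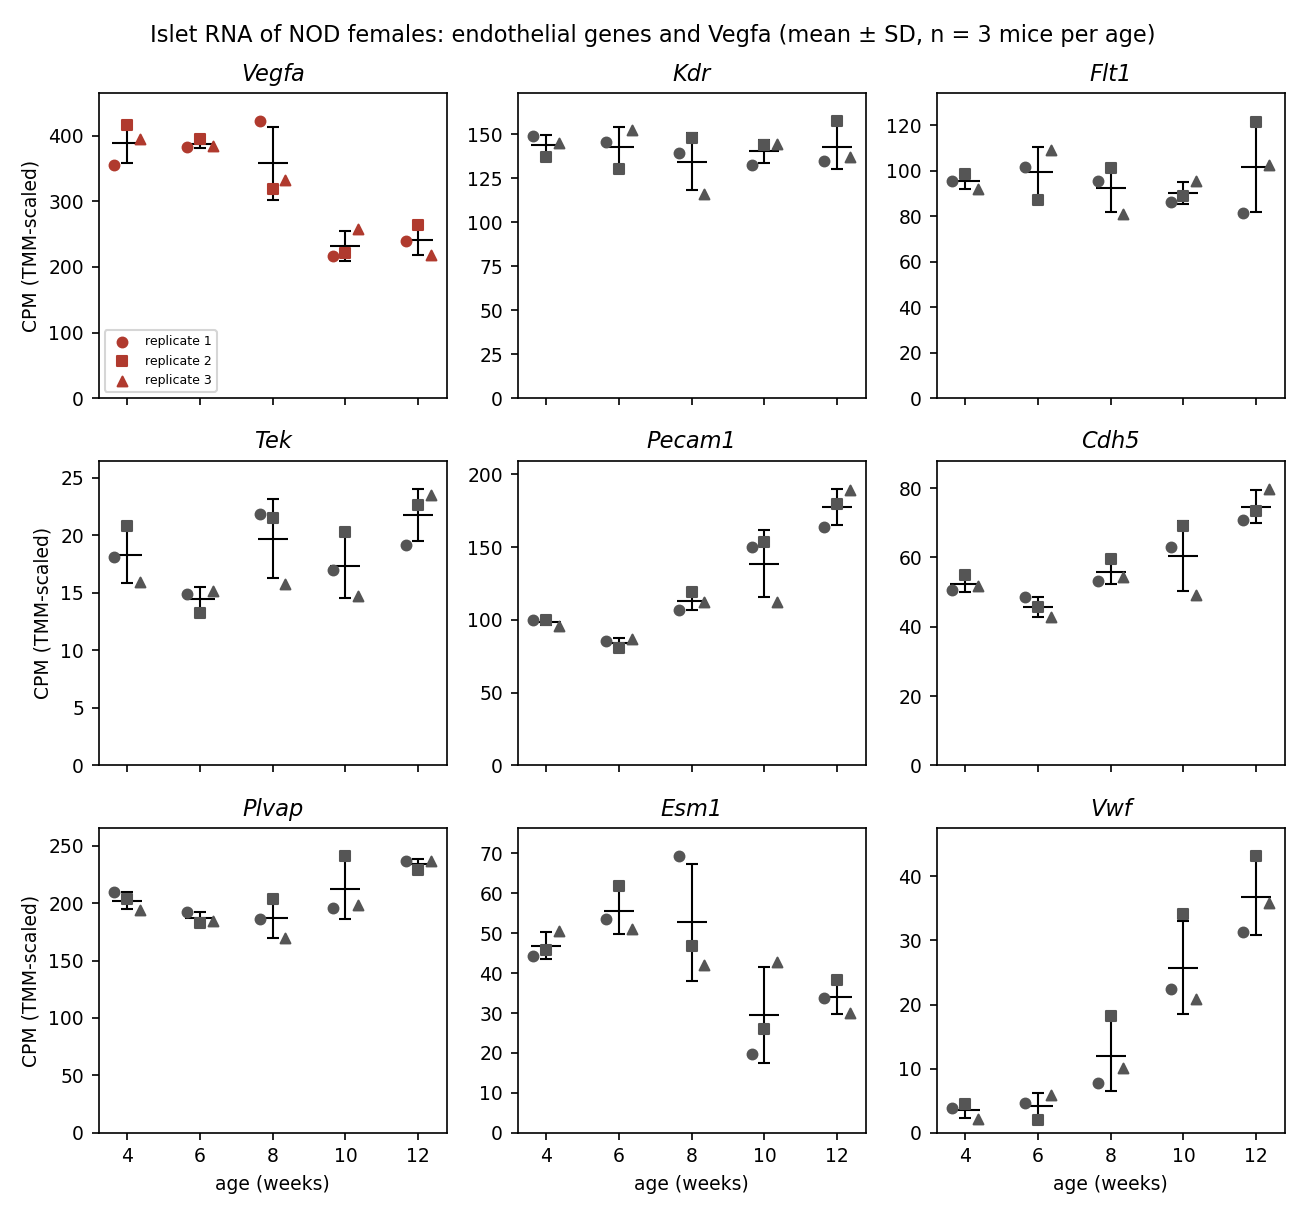
Levels of Vegfa and the 8 endothelial genes in TMM-scaled counts, in CPM (vertical axes, from 0) against age in weeks, with each mouse as a point whose shape is its replicate number and with the mean ± SD of 3 mice as black marks. The means of Vegfa and Esm1 are lowest at 10 and 12 weeks, those of Kdr and Flt1 lie within the spread at all ages, and Pecam1, Cdh5 and Vwf are highest at 12 weeks, where Vwf reaches 36.8 CPM from 3.53 CPM at 4 weeks.

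Of the 8 endothelial genes, 4 were called higher at 12 than at 4 weeks (Vwf, Pecam1, Cdh5 and Plvap), 0 lower, and 4 did not pass, beside the 26.3% higher and 27.2% lower of all genes. Their median log2 change was 0.23 against -0.05 over all genes tested. In the late against the early mice 4 were higher and 1, Esm1, lower, where 63.8% of all genes passed (30.1% higher, 33.7% lower). Across any of the 5 ages, 6 of the 8 were called, all but Kdr and Flt1, where 56% of all genes were. By the scaling to library totals 7 of the 8 were called at 12 against 4 weeks, all but Esm1, where 8376 of all 16554 genes were called and 78.27% of those were higher.

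**Figure D2:**
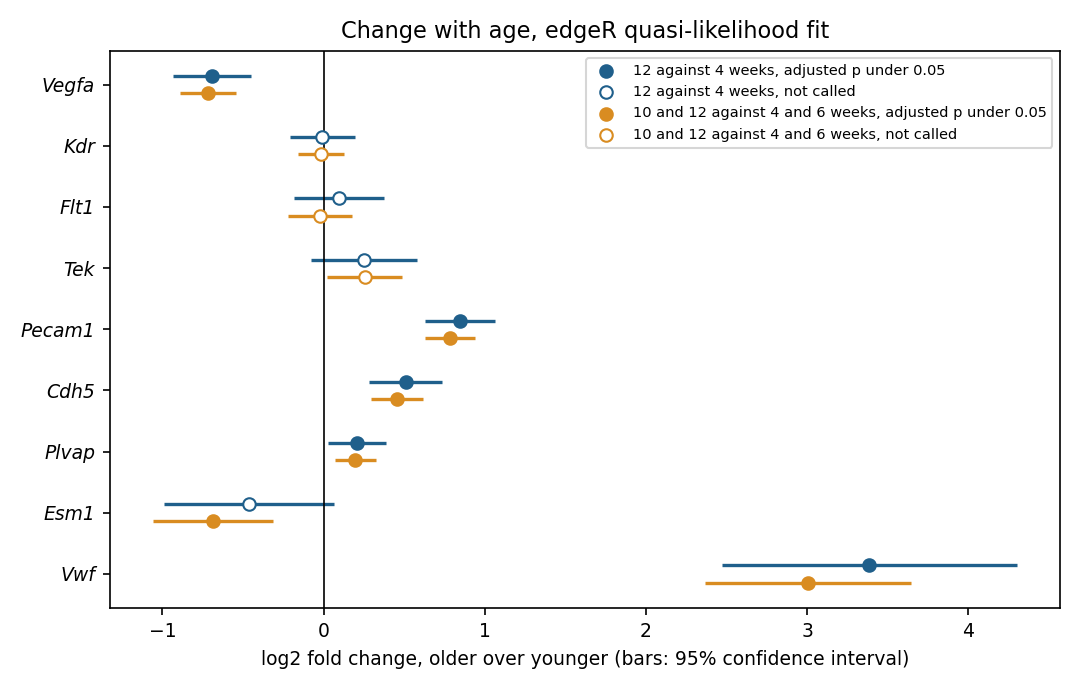
Log2 fold change with age (horizontal axis, 0 marked) of Vegfa and the 8 endothelial genes in 2 comparisons, 12 against 4 weeks in blue and 10 and 12 against 4 and 6 weeks in orange, with 95% confidence intervals as bars. Filled points passed an adjusted p under 0.05, and the intervals of Vegfa lie below 0, those of Pecam1, Cdh5, Plvap and Vwf above it, and those of Kdr and Flt1 across it.

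Step by step, few of these genes were called. From 4 to 6 weeks 0 of the 8 passed by edgeR's quasi-likelihood test (0.0906% of all genes did), by its exact test or by DESeq2, and 2, Pecam1 and Tek, had an unadjusted p under 0.05, both lower, as 4.87% of all genes did. From 6 to 8 weeks 0 passed, as did 0% of all genes, and 4 had an unadjusted p under 0.05, all higher, where 10.9% of all genes did. These were Pecam1 (0.42, adjusted p = 0.162), Cdh5 (0.28, adjusted p = 0.209), Tek (0.45, adjusted p = 0.193) and Vwf (1.53, adjusted p = 0.169). DESeq2 called 2 of them, Pecam1 and Vwf, among 547 of 22813 genes, and the edgeR exact test called Pecam1 among 157 of 15520 genes. From 8 to 10 weeks 1 passed, Esm1, lower, where 16.8% of all genes passed and 8.37% were lower. Another 3 had an unadjusted p under 0.05, all higher, where 19.5% of all genes did: Pecam1 (0.30, adjusted p = 0.0544), Vwf (1.102, adjusted p = 0.0621) and Plvap (0.18, adjusted p = 0.128). From 10 to 12 weeks 0 passed by these 3 tests (0% of all genes by the quasi-likelihood test), and Pecam1, Cdh5 and Tek had an unadjusted p under 0.05, all higher, where 3.53% of all genes did. With 3 against 3 mice an exact permutation test cannot go below a p of 0.1.

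Most genes were higher relative to Vegfa in the older mice, in which Vegfa itself was lower. Of all genes, 71.1% at 12 against 4 weeks and 81.3% in the late against the early mice were called above Vegfa, so the count for the endothelial genes is near the background and is not a result about them. The change of a gene minus the change of Vegfa was above 0 with an adjusted p under 0.05 (limma on log2 CPM) in 7 of the 8 genes at 12 against 4 weeks and in 7 of the 8 in the late against the early mice. The ratio of Vegfa to Plvap went from 1.93 ± 0.199 at 4 weeks to 1.03 ± 0.114 at 12 weeks (CPM over CPM; SD, n = 3), that to Pecam1 from 3.94 ± 0.337 to 1.36 ± 0.178, and that to Kdr from 2.72 ± 0.326 to 1.69 ± 0.0938. The ratio to Vwf went from 121 ± 50.4 to 6.62 ± 0.892. In all 7 genes the ratios of 10 and 12 weeks lay below those of 4 and 6 weeks in every mouse, which gave an exact permutation p of 0.00217 for each of these 7 of 8 ratios tested, unadjusted.

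Esm1 did not pass this test. The ratio of Vegfa to Esm1 was 8.32 ± 0.689 at 4 weeks and 7.09 ± 0.208 at 12 weeks, without overlap and lower as for the other 7 genes, and the change of Esm1 minus that of Vegfa was 0.23 (adjusted p = 0.244). In the late against the early mice it was -0.005 (adjusted p = 0.972), with overlapping ratios of 7.81 ± 1.76 in the late and 7.67 ± 0.910 in the early mice (SD, n = 6 each). With the mean of the endocrine genes as the reference in place of Vegfa, Esm1 was 0.40 above it at 12 against 4 weeks (adjusted p = 0.0184) and 0.04 above it in the late against the early mice (adjusted p = 0.738). Of all genes, 81.4% and 83.9% were called above that mean in these comparisons, so the call of Esm1 at 12 against 4 weeks is near the background and is not a result about it.

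**Figure D3:**
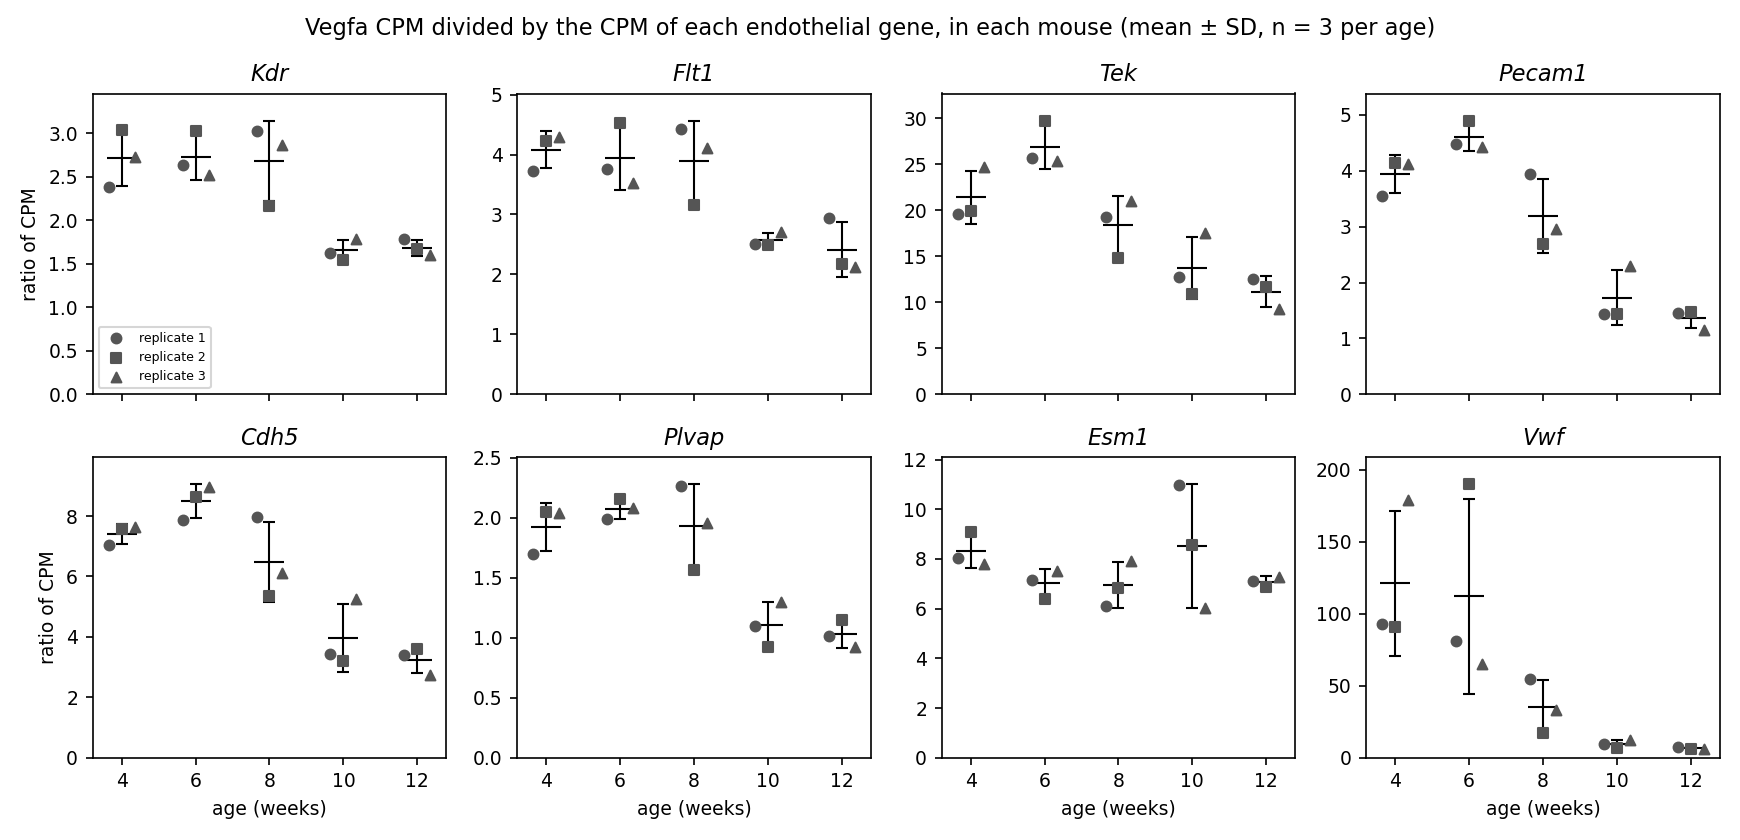
CPM of Vegfa divided by the CPM of each of the 8 endothelial genes in the same mouse (vertical axes, from 0) against age in weeks, 1 point per mouse with its replicate number as the shape, and the mean ± SD of 3 mice as black marks. The ratio to Plvap is 1.93 at 4 and 1.03 at 12 weeks and that to Vwf 121 and 6.62, while the ratio to Esm1 has overlapping values at most ages.

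Per transcript length, Plvap (196 ± 13.4 TPM) and Vegfa (174 ± 7.26 TPM) stood well above the other 7 genes at 4 weeks. Pecam1 (44.0 ± 2.15 TPM) and Esm1 (42.9 ± 2.86 TPM) followed with overlapping ranges, then Kdr (30.6 ± 2.43 TPM), Cdh5 (23.9 ± 0.423 TPM), Flt1 (15.8 ± 0.673 TPM), Tek (7.47 ± 0.901 TPM) and Vwf (0.422 ± 0.141 TPM), each free of overlap with the next. At 12 weeks Plvap had 296 ± 21.6 TPM, Vegfa 141 ± 8.31 TPM and Pecam1 104 ± 13.5 TPM. Cdh5 (44.8 ± 5.72 TPM), Esm1 (40.6 ± 3.52 TPM) and Kdr (39.8 ± 3.52 TPM) then overlapped, and Vwf was still the lowest with 5.76 ± 0.963 TPM. The ranges of Plvap and Vegfa overlapped at 6 and 8 weeks and were free of overlap at 4, 10 and 12 weeks. Changes with age differ between TPM and CPM, in which Plvap went from 202 to 234 and Vegfa from 389 to 241 between 4 and 12 weeks. By TPM, Kdr ran from 28.2 to 33.0 at 4 weeks and from 35.8 to 42.6 at 12 weeks, without overlap, whereas its CPM overlapped.

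Other endothelial genes gave the wider picture. Of 26 further genes of endothelial identity and function, 14 rose, 1 fell and 11 did not pass at 12 against 4 weeks, with a median log2 change of 0.36. For this and the lists that follow, the share of all genes is 26.3% higher and 27.2% lower. Eng (endoglin, a TGF-beta co-receptor and the most abundant by TPM) rose by 0.62 (adjusted p = 0.00357), from 70.8 ± 3.70 to 109 ± 11.5 CPM. The adhesion molecule gene Icam2 rose by 1.44 (adjusted p = 0.000225) and Cldn5, a claudin of tight junctions, by 1.42 (adjusted p = 0.0136), with at most 4.25 CPM in any mouse. Emcn (endomucin, a sialomucin of capillaries and veins) fell by 0.28 (adjusted p = 0.0495), from 27.8 ± 0.567 to 22.8 ± 1.07 CPM. By mean TPM, Emcn did not fall: the mice of 12 weeks had 10.6 against 9.885 in those of 4 weeks. The direction of its change therefore depends on the measure. By the likeness measure, the genes closest to the mean of the 8 endothelial genes were Srpx (0.947), Jam2 (a junctional adhesion molecule, 0.945), Hmcn2, Mmrn2 (multimerin 2, an endothelial matrix protein) and Pdzd2 (0.935), over 15 mice.

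Genes of the VEGF and angiopoietin families were called in both directions, in a share near that of all genes. Of 20 genes in this list, of which 3 (Tie1, Ptprb and Nos3) are also among the 26 above, 9 rose, 3 fell and 8 did not pass at 12 against 4 weeks (median 0.12), where 53.5% of all genes passed. Among the ligands, Pgf (placental growth factor) fell by 0.84 (adjusted p = 0.00154), from 8.78 ± 0.524 to 4.90 ± 1.08 CPM, and Vegfb fell by 0.37 (adjusted p = 0.00395), from 28.3 ± 1.37 to 21.9 ± 1.81 CPM. Mean TPM was also lower for Pgf (10.65 and 7.77 at 4 and 12 weeks). For Vegfb it was not (33.95 and 34.22), so the fall of Vegfb depends on the measure. The lymphatic growth factors rose: Vegfc by 0.72 (adjusted p = 0.0111) to 5.55 ± 0.611 CPM and Vegfd by 2.68 (adjusted p = 0.00103) to 4.21 ± 1.76 CPM. Angpt1, the Tek agonist, rose by 1.23 (adjusted p = 0.00358), and Angpt4 rose by 3.63 (adjusted p = 0.000257) from 4 to 7 counts per mouse to 46 to 118 counts. Angpt2, the context-dependent Tek antagonist, had 6.75 ± 0.427 CPM at 4 weeks and 6.88 ± 0.916 CPM at 12 weeks (adjusted p = 0.901).

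Among the receptors of these families, the neuropilins rose: Nrp1, a co-receptor of VEGF receptor 2, by 0.50 (adjusted p = 0.000897), from 52.5 ± 3.50 to 74.0 ± 6.61 CPM, and Nrp2 by 1.56 (adjusted p = 0.000308), from 16.3 ± 1.46 to 47.8 ± 5.49 CPM. Nerve, immune and mesenchymal cells also express neuropilins. Flt4 (VEGF receptor 3, of lymphatic vessels) had a log2 change of 0.13 (adjusted p = 0.525) and Tie1, the partner receptor of Tek, of 0.12 (adjusted p = 0.161), and neither passed. Of 9 genes of sprouting tip cells, 2 rose, 1 fell and 6 did not pass. Cxcr4, a chemokine receptor that lymphocytes also carry, rose by 3.38 (adjusted p = 0.000205), Pdgfb, which recruits pericytes, by 0.41 (adjusted p = 0.0291), and Nid2, a basement membrane protein, fell by 0.86 (adjusted p = 0.000256).

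Genes of high endothelial and activated venules were all higher. The 11 were called higher at 12 against 4 weeks, with a median log2 change of 5.02. Glycam1, the sulfated mucin that binds L-selectin on lymphocytes, had 0 or 1 count per mouse at 4 weeks and 169, 271 and 231 CPM at 12 weeks, at least 1929-fold higher when 3 counts per library are taken as the floor. Chst4, the sulfotransferase that modifies such mucins, had 0 counts at 4 weeks and 6.55, 5.45 and 5.63 CPM at 12 weeks, at least 50.8-fold higher. The addressin Madcam1 rose by 6.82 (adjusted p = 0.000529), P-selectin (Selp) by 5.09 (adjusted p = 0.000262), Ackr1, a chemokine-binding protein of venules, by 4.47 (adjusted p = 0.000133) and Vcam1 by 3.85 (adjusted p = 0.00185). Enpp2, which makes lysophosphatidic acid, had the smallest rise of the list, 0.80 (adjusted p = 0.000475). The 6 genes of lymph node stroma were all higher as well, but Madcam1 is also among the 11. Ccl21a, another of the 6, is also among the lymphatic endothelial genes described below. The most abundant, the chemokine gene Ccl19, rose by 4.43 (adjusted p = 0.00376) and Cxcl13, which attracts B cells, by 6.84 (adjusted p = 0.000154). Cr2 (complement receptor 2) had at most 3 counts at 4 weeks and was at least 455-fold higher.

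Genes of the vessel wall were called higher or did not pass, and genes of low oxygen were called in both directions. Of 10 pericyte and smooth muscle genes 6 rose and 4 did not pass (median 0.83). Des (desmin) rose by 2.34 (adjusted p = 0.000273) and Acta2 (smooth muscle actin) by 1.64 (adjusted p = 0.00253), while the most abundant, the pericyte gene Rgs5, had 236 ± 11.8 CPM at 4 weeks and 216 ± 22.4 CPM at 12 weeks (adjusted p = 0.294). Of 21 genes that respond to hypoxia, a group to which Vegfa is often counted, 10 rose, 5 fell and 6 did not pass (median 0.14). Car9 rose by 3.52 (adjusted p = 0.00201), from 2 to 7 counts per mouse to 35 to 135 counts and highest in replicate 1 at 12 weeks, the mouse with the intestinal genes, and Hk2 (hexokinase 2) rose by 2.80 (adjusted p = 0.00684). The most abundant, the glycolytic gene Aldoa, had a log2 change of 0.14 (adjusted p = 0.0683). Bnip3 fell by 0.34 (adjusted p = 0.0172) and Vldlr by 0.32 (adjusted p = 0.0425). Mean TPM at 4 and 12 weeks was 46.1 and 47.7 for Bnip3 and 8.78 and 9.19 for Vldlr, so these falls depend on the measure. Of 6 genes of hypoxia-inducible factors and their regulators, Epas1 (HIF-2 alpha, abundant in endothelium) rose by 0.46 (adjusted p = 0.00314) and Hif1a by 0.43 (adjusted p = 0.00753), while Hif1an fell by 0.44 (adjusted p = 0.000599) and Arnt by 0.27 (adjusted p = 0.00213). By mean TPM, Hif1an was also lower at 12 than at 4 weeks (20.9 against 21.7) and Arnt was higher (16.4 against 15.1).

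**Figure D4:**
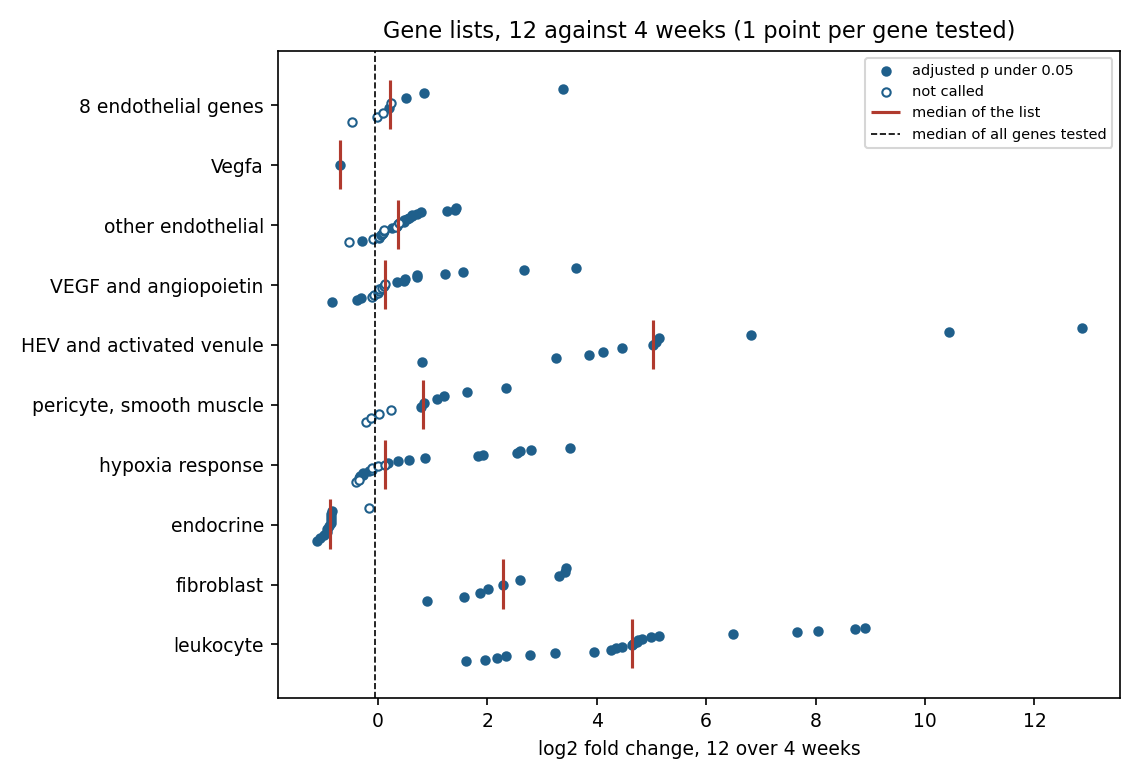
Log2 fold change between 4 and 12 weeks (horizontal axis) of every tested gene of 9 gene lists and of Vegfa (rows), filled where the adjusted p was under 0.05, with the median of each list as a red bar and the median of all genes tested, -0.05, as a dashed line. The 8 endothelial genes and the 26 other endothelial genes have medians of 0.23 and 0.36, the endocrine genes have a median of -0.88, and the venule and leukocyte genes have medians of 5.02 and 4.65.

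Other cells that vessels or preparations can bring were read in the same way at 12 against 4 weeks. Of 7 lymphatic endothelial genes, 2 rose, 1 fell and 4 did not pass. The chemokine Ccl21a rose by 3.26 (adjusted p = 0.00194) and was uneven between the mice of 12 weeks (22.6, 96.6 and 34.5 CPM), and Pdpn (podoplanin) rose by 2.98 (adjusted p = 0.000474). Prox1, a lymphatic transcription factor that endocrine cells also express, fell by 0.58 (adjusted p = 0.00118). The 4 red blood cell genes tested (3 of haemoglobin chains and Alas2, of haem synthesis) were all lower, with Hba-a1 from 138 ± 12.2 to 47.8 ± 8.24 CPM and Hbb-bt from 20.5 ± 1.53 to 6.97 ± 1.99 CPM. Of 10 acinar genes, with Ctrb1 the most abundant, 0 passed by edgeR's quasi-likelihood test, also at an unadjusted p under 0.05. Of 6 ductal genes 3 rose, among them Spp1 (0.83), Krt19 (1.74) and Muc1 (1.23), and 1 fell, Krt7 (-0.76). Of 5 intestinal genes tested 3 rose and 1, Olfm4, fell by 0.50, and Lypd8 had 24.9 CPM in replicate 1 at 12 weeks against 0.1 and 0.314 CPM in the other mice of that age. Without that mouse, Vwf rose by 3.49, Pecam1 by 0.90 and Cdh5 by 0.55 and Vegfa decreased by 0.69, all still called, while Plvap (0.20, adjusted p = 0.101) was not. How far these cells contribute to the endothelial values was not tested.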

How the data were processed

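Polyadenylated RNA from islets of 15 NOD females (3 per age) had been sequenced as read pairs. Trimming, alignment and counting per gene were run by the authors in CLC Genomics Workbench 23.0, with the defaults of its tools. The labels' processing notes name the build mm10. The deposited counts are whole reads per gene with no normalization, and the deposited TPM values are the authors' own. TPM was used for levels between genes and for sums over lists, and every test was made on the counts or on log2 CPM computed from them. A further 30 per-sample columns (RPKM and CPM) and the authors' columns of comparisons were not used here. Whether the counting used the strand is not given in the sources used here.

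Genes were kept by filterByExpr (16554 of 48709), scaled by TMM and fitted in edgeR 4.0.16 (R 4.3.3) with 1 mean per age over all 15 mice, then tested with glmQLFTest. The authors' own test was that of the CLC software. Calls were made at an adjusted p under 0.05 (Benjamini-Hochberg over all genes tested). Changes relative to Vegfa were tested with limma 3.58.1 on log2 CPM with a prior count of 2. Single genes were also compared by exact two-sided permutation tests over mice. Totals of 25407492 to 41616275 counts put the floor of 3 counts at 0.0754 to 0.128 CPM, for counting error only. Between mice of 1 age, chi-square divided by its degrees of freedom was 15.9 to 127, so no pair of libraries differed by sampling noise alone. On simulated data with 16554 genes, 200 of them changed, the 12 against 4 week test recovered 64% of log2 changes of 1 and 78% of those of 2, with 2.74% false among the calls. In the data 53.5% of genes passed in this comparison, so these rates describe the simulated setting only.

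The 9 genes and the gene lists were chosen with earlier results of these data known. The text names all 9 genes, every VEGF or angiopoietin ligand and receptor, the most abundant gene of each list and its 2 largest rises and falls among calls without overlap at 12 against 4 weeks, and the 5 genes most like Vegfa and most like the mean of the endothelial genes. Other genes named were chosen after their values were seen, and 1 gene that this rule selects is not reported here. Of 23 leukocyte genes, 22 were measured. Alternatives were DESeq2 1.42.0 and its size factors, library totals, no filter, fits of the compared ages only, edgeR's exact test, each mouse left out, the replicate number as a block, the mean of the leukocyte genes as a covariate and, for the changes relative to Vegfa, a prior count of 0.5 and the endocrine genes as the reference. Promoters are from RefSeq, GRCm38.p6.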

Additional observations from a re-analysis of the deposited data

How the results depend on the processing

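Leaving out each mouse kept the calls of Pecam1, Cdh5, Vwf and Vegfa at 12 against 4 weeks and in the late against the early mice, and those 2 counts of called endothelial genes were 3 to 5 and 5 to 6, where 42.9% to 54.6% and 58.9% to 64.9% of all genes were called. With library totals the count at 12 against 4 weeks was 7, where 8376 of 16554 genes were called. In the late against the early mice it was 7 on that scale (6 higher and 1 lower), where 10054 were called. The leukocyte covariate, which rises with age, ended every call (0 and 0, where 2 and 0 of all 16554 genes were called), with Vegfa at -0.2163 and -0.2815 and Esm1 at 0.5522 and 0.2303. The cause of these shifts was not tested.

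Kdr turned positive at 12 against 4 weeks with size factors (0.05037), library totals (0.2369), the 2 ages alone (0.04414), the exact test (0.04408), DESeq2 (0.05024) and the leukocyte covariate (0.05264), and ranged from -0.08327 to 0.03411 with a mouse left out. In the late against the early mice the same settings gave Kdr 0.0344, 0.2124, 0.006802, 0.01256, 0.03462 and 0.03861 (-0.05434 to 0.007269) and Flt1 0.02886, 0.2081, 0.001384, 0.009257, 0.029 and 0.006157 (-0.09474 to 0.04744). With library totals Kdr passed in this comparison (adjusted p = 0.0118, edgeR's quasi-likelihood test) and Flt1 did not (adjusted p = 0.0645). Flt1 at 12 against 4 weeks ranged from -0.05151 to 0.2326. Esm1 relative to the endocrine genes was 0.0369 in the late against the early mice, and relative to Vegfa -0.1189 to 0.09683.

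In the steps, Vegfa at 6 against 4 weeks was 0.001228 with library totals and 0.04991 with the leukocyte covariate (-0.06767 to 0.04489 with a mouse left out), at 8 against 6 weeks 0.08916 with that covariate, and at 12 against 10 weeks -0.01892 to 0.135. At 10 against 8 weeks Vegfa did not pass with the 2 ages alone (-0.6277), the exact test (-0.6277), the replicate block (-0.6245, adjusted p = 0.0549) or the leukocyte covariate (-0.4359), and ranged from -0.7097 to -0.4906. Of all genes, 0 passed with the 2 ages alone, the block or the covariate, and 140 of 15894 by the exact test. Endothelial genes called at 8 against 6 weeks were 1 by the exact test and 2 by DESeq2 (0 to 2, with 2 without replicate 1 at 8 weeks, where 797 of 16870 genes were called). At 10 against 8 weeks they were 2 with size factors, 3 with library totals, 3 by DESeq2 (2770 and 2319 of 16554 and 4070 of 22813 genes called) and 0 with the ages alone, the exact test, the replicate block or the leukocyte covariate (0 to 4, with 4 without replicate 3 at 10 weeks, where 5612 of 16868 genes were called). Deviations of same-numbered mice correlated at 0.0262, 0.102 and -0.159 (12 and 4 weeks), up to 0.509 (8 and 6 weeks) and down to -0.504 (6 and 4 weeks). Their means over all pairs of ages were -0.0966, -0.0652 and -0.0767, so the mice were not treated as paired. With 3 mice per age, changes the size of those of Kdr and Flt1 were within the spread.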

Other observations

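Genes whose pattern was most like that of Vwf and of Esm1 were looked up after their values had been seen. By Pearson's r of log2 CPM over the 15 mice, Aqp1 (a water channel of endothelium and red cells, 0.990), Ackr1 (0.984), Lrg1 (0.973), Mmp2 and Syt15 were closest to Vwf. Aqp1 rose by 3.22 between 4 and 12 weeks (adjusted p = 0.000128, edgeR's quasi-likelihood test) and Lrg1, a secreted glycoprotein of activated venules, by 5.02 (adjusted p = 0.000162). Closest to Esm1 were Exph5 (0.965), Ptpdc1, Btrc, Arhgef11 and Myo6.

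The 3 haemoglobin genes tested fell between 4 and 6 weeks. Hba-a1 had 127, 151 and 135 CPM at 4 weeks and 43.5, 49.6 and 58.4 CPM at 6 weeks, a decrease by 1.45 on the log2 scale (adjusted p = 0.0356, edgeR's quasi-likelihood test), in a step where 0.0906% of all genes passed. The fits that left out a mouse called 0 to 69 of all genes in this step, so the haemoglobin calls did not hold in every such fit.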
